A study of Mus musculus with 3 samples.

Results

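The acute phase protein genes examined here encode plasma proteins that the liver makes in greater amount during inflammation. The 10 members were Saa1, Saa2, Saa3 and Saa4 (serum amyloid A proteins), Hp (haptoglobin), Orm1 and Orm2 (orosomucoids), Apcs and Crp (pentraxins) and Lcn2 (lipocalin 2), and all were found in the RefSeq table of GRCm38.p6, the patched form of the mm10 assembly. Every accessible interval, or peak, that overlapped a member's gene body or the 50 kb on either side was taken, and overlapping windows were joined, which gave 6 loci of 674 kb in all. These loci held 81, 79 and 85 of the 108997, 119230 and 110455 peaks of EV replicates 1, 2 and 3. Peaks that overlapped between libraries were merged, and the loci then held 100 of 139455 merged regions.

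The chromatin was read by ATAC-seq, in which the transposase Tn5 cuts accessible DNA and leaves sequencing adapters there. All 3 libraries belong to 1 group, EV. It consists of sorted liver cells, labelled hepatocytes, of WT mice that had been injected with AAV8-TBG-Cre, an adeno-associated vector in which the TBG promoter, active in hepatocytes, drives Cre. The cells were collected 4 days later, and all 3 libraries share this vector and the Cre. The age, sex and strain of the mice were not given in the sources used here, and livers given the Sox4 vector were not analysed here, so no treatment was compared. No label says whether each library came from its own mouse, and the SDs below may therefore hold technical spread alone.

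In an inflamed animal, interleukin 6 acts through its receptor and gp130 on the kinase JAK1 and the transcription factor STAT3, while interleukin 1 and tumour necrosis factor act through NF-kB. Both routes meet at C/EBP factors on the promoters of acute phase genes in hepatocytes. Whether a promoter is accessible is a different quantity from how much RNA is made from it, and only accessibility was measured here.

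A peak's height is given as its pileup, the number of extended tags stacked at its highest summit, per 1000000 tags of its library (PPM). The libraries had 96066404, 116147036 and 117450440 tags. A region with a peak of all 3 libraries is called shared. The Sox4 gene had a highest pileup of 1.33, 21.9 and 1.14 PPM in replicates 1, 2 and 3, so the second library stood apart from both others at the gene that the series' other vector carries. It is written below as the library labelled EV replicate 2, and counts are also given without it. The hepatocyte label was checked on markers: 10 of 10 hepatocyte marker genes had a peak within 1000 bp of a gene end in all 3, against 64.4% of 21627 protein-coding genes. Of the markers of cells that also make Saa3 or Lcn2, 2 of 12 macrophage genes and 1 of 11 neutrophil genes had one, and so did 2 of 9 matched endothelial genes. The open ones were Spi1 and Cd68 of macrophages, with means of 7.03 and 2.69 PPM, Elane of neutrophils, with 1.90 PPM, and Tie1 and Kdr of endothelium, with 3.25 and 0.615 PPM. Adgre1, Clec4f and Csf1r of macrophages and S100a8, S100a9 and Camp of neutrophils lacked one in every library.

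Of the 100 merged regions in the acute phase loci 63 were shared, against 61.5% of all merged regions, so sharing was near the background. Without the library labelled EV replicate 2, 73 of 91 regions were shared by both others, or 80.2%, against 84.2% over the genome. The shared regions had a median height of 3.09 PPM, against 1.71 PPM over all 85711 shared regions of the genome. In the separate libraries their median was 3.55, 2.63 and 3.93 PPM, against 1.78, 1.54 and 1.73 PPM over the genome. The median over the members' loci was thus above that of all shared regions in each library. Windows of single protein-coding genes, with 50 kb on either side, give another background. Among those with a shared region, the tallest had a median of 7.45 PPM. The tallest in the windows of Apcs, the Saa genes and Crp lay below this, at 4.69, 6.72 and 7.18 PPM. Those of the Orm genes, Hp and Lcn2 lay above it, at 8.06, 8.66 and 10.0 PPM. The 32 shared regions within 10 kb of a member had a median of 4.22 PPM, and the 31 farther ones 2.52 PPM. The near ones include starts of other genes, such as Txnl4b, 1110008P14Rik and Ptges2, with means of 8.66, 8.80 and 7.54 PPM. Whether height falls with distance in the same way around other genes was not tested. The highest summits of a shared region lay close together between libraries, with a median distance of 14 bp from the lowest to the highest position and 25 bp or less in 54 of 63 regions. The widest spread, 784 bp, was that of a broad region at the lower end of Slc25a25.

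The loci differed in how densely they were filled. Shared regions numbered 14.5 per 100 kb around Lcn2, 14.0 in the Orm locus, 10.6 around Hp, 7.73 in the Saa locus, 5.89 around Crp and 2.97 around Apcs. The windows of all protein-coding genes, with the same 50 kb but not joined, had a median of 6.01 per 100 kb and an interquartile range of 2.42 to 9.71. Taken singly in that way, Orm1 and Orm2 had 13.5 and 15.5, and Saa3, Saa4, Saa1 and Saa2 had 8.36, 8.60, 8.76 and 9.76. Lcn2, both Orm genes, Hp and, narrowly, Saa2 therefore lay above the upper quartile. The 2 pentraxin loci lay below the median, with no other protein-coding gene in their windows. Of the 63 shared regions, 5 lay at the listed transcription start of a member, 6 elsewhere in a member's body, 8 at the start of another protein-coding gene, 23 elsewhere in such a gene and 21 outside protein-coding genes. The region with the highest mean lay at an end of a member in 4 of 6 loci, those of Saa, Orm, Crp and Apcs, and at the start of a neighbour around Hp and Lcn2. Those of the Saa and Orm loci also lay at the listed starts of Gm31882 and Gm52743, which are not protein-coding. The Crp and Apcs windows held no other protein-coding gene to compete. How often the tallest region lies at the gene's own end in windows of other genes was not counted.

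**Figure D1:**
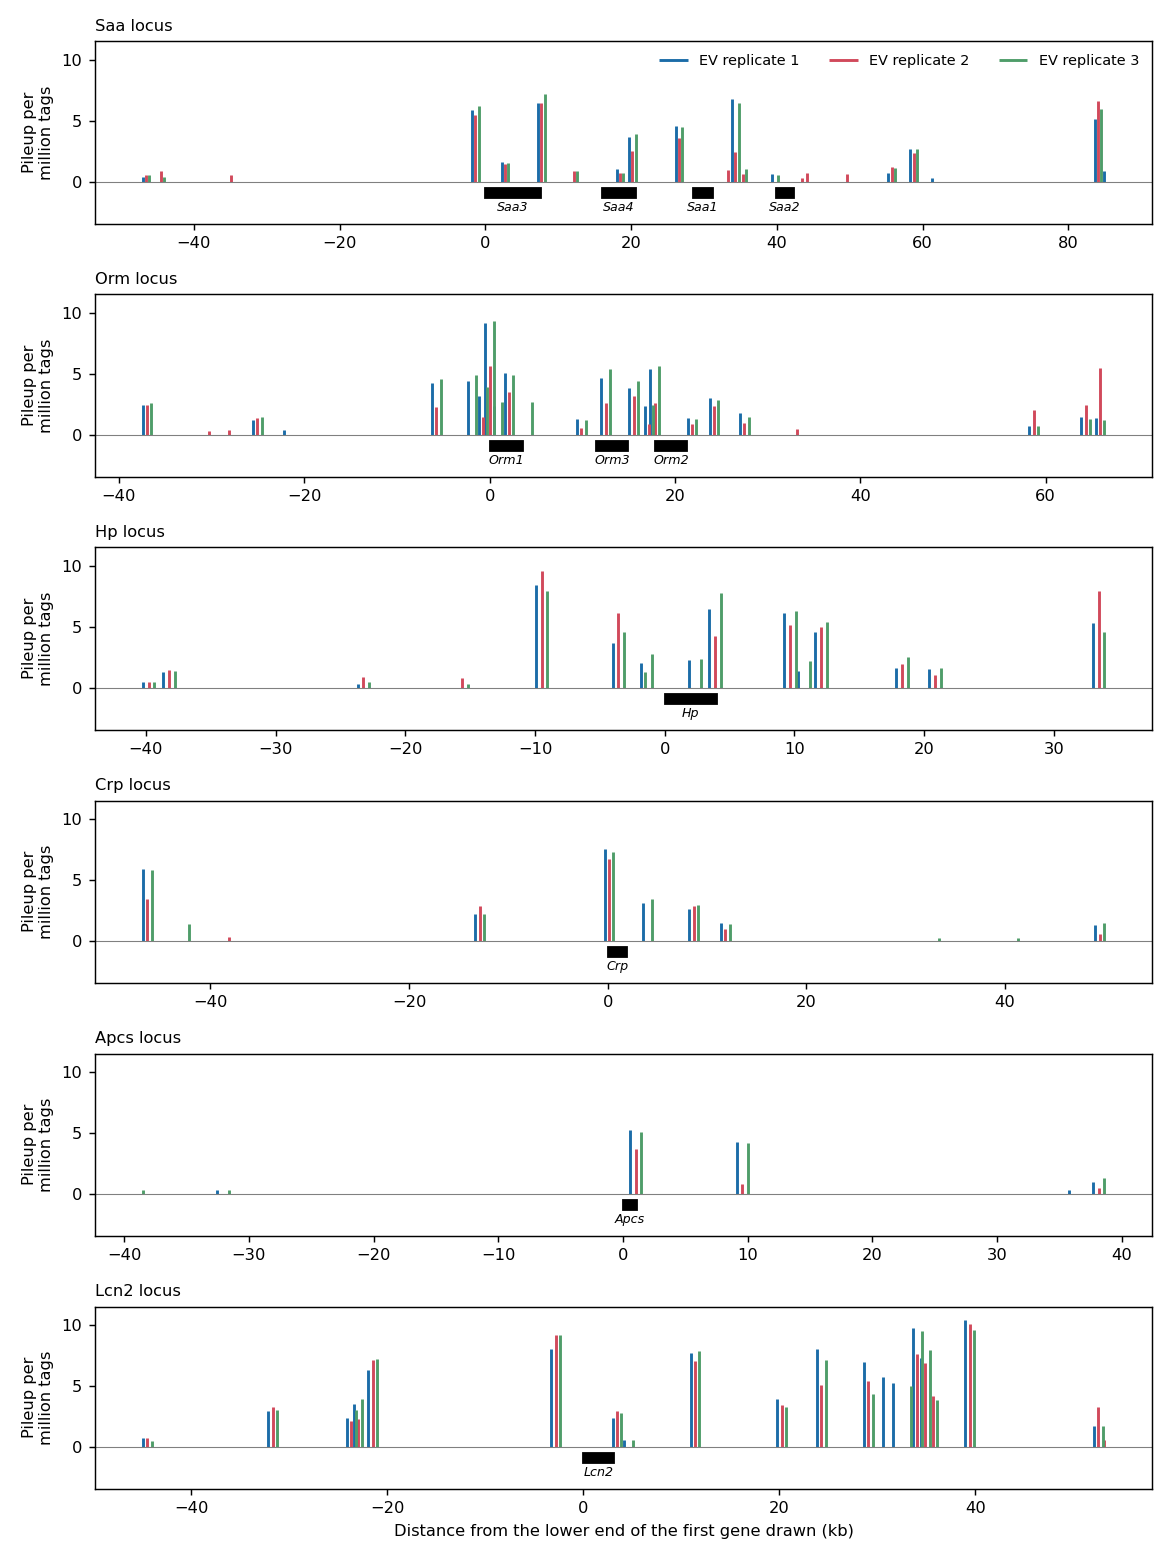
Heights of all peaks in the 6 acute phase loci, in pileup per 1000000 tags (vertical axis), against the distance in kb from the lower end of the first gene drawn (horizontal axis). Each line is the centre of a merged region in 1 library, shifted slightly between the libraries, and black bars are gene bodies, Orm3 included. Shared regions are densest around Lcn2 and in the Orm locus, at 14.5 and 14.0 per 100 kb, whereas Apcs has 3 in its whole window.

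At gene ends, the windows of 1000 bp around both ends of a gene body, 9 of 10 members had a peak in all 3 libraries, against 64.4% of protein-coding genes. The number was also 9 without the library labelled EV replicate 2. The exception was Saa1. Transcription starts with strand were listed for 8 members, all but Hp and Orm1. Of these, 5 had a peak within 250 bp of the start in all libraries, namely Crp, Apcs, Lcn2, Orm2 and Saa4, against 61.1% of 17273 protein-coding genes with a listed start. Starts of the members were thus accessible about as often as those of other genes.

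The same counts under other settings are given with the background under each. In pairs of libraries, 68 of 94 regions of the loci were shared without replicate 1 (72.3%, genome 66.7%), 73 of 91 without replicate 2 (80.2%, genome 84.2%) and 64 of 94 without replicate 3 (68.1%, genome 66.1%). With peaks of a −log10 q of 10 or more, 61 of 84 regions were shared, 72.6% against 64.6%, and with the 50000 strongest peaks of each library 40 of 53, 75.5% against 64.1%. An overlap of 50% of the shorter peak left 63 of 100, against 61.2%. For gene ends, the background was 65.1%, 65.0% and 65.0% without replicates 1, 2 and 3, with 9 members each time. It was 62.3% with the q filter, 54.4% with the strongest peaks, 60.5% with windows of 500 bp and 62.6% when a summit had to lie in the window, with 8 members each time, and 70.9% with windows of 2500 bp, with all 10. For starts, the background was 61.8%, 61.4% and 61.7% without replicates 1, 2 and 3, with 5, 6 and 5 members, and 59.4%, 53.6% and 59.3% with the q filter, with the strongest peaks and with a peak over the start base itself, with 5 members each time.

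**Figure D2:**
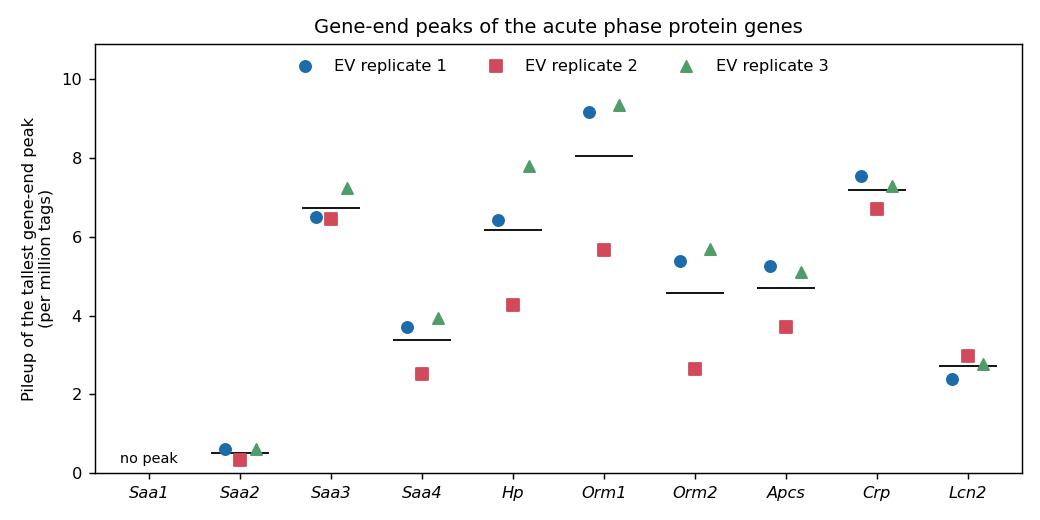
Height of the tallest gene-end peak of each member in pileup per 1000000 tags, with 1 symbol per library and a line at the mean of 3. Orm1, Crp and Saa3 have means of 8.06, 7.18 and 6.72 PPM, Saa2 lies under 1, and Saa1 has no such peak. The symbols of Saa2 are peaks at different ends of the gene.

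The Saa locus, on chromosome 7 from 46661998 to 46804313, holds the 4 serum amyloid A genes. Saa1 and Saa2 encode the forms that surge in plasma during inflammation and travel on high-density lipoprotein, Saa3 is in mice also made outside the liver, for example by macrophages, and Saa4 encodes the constitutive form. The promoters below show why the first 2 must be read with care. They run from 250 bases before to 50 bases after the start, from RefSeq on GRCm38.p6, 5′ to 3′, and capitals mark matches to the C/EBP motif TTGCNNAA or the NF-kB motif, GGG and CC with any 5 bases between, on either strand.
Saa1 (chr7:46742931-46743230, minus strand): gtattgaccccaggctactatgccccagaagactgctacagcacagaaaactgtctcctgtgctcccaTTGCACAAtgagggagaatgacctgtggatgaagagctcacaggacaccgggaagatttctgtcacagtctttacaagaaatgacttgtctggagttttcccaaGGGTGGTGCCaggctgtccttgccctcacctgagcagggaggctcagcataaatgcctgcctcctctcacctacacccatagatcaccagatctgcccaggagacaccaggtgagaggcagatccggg
Saa2 (chr7:46751583-46751882, plus strand): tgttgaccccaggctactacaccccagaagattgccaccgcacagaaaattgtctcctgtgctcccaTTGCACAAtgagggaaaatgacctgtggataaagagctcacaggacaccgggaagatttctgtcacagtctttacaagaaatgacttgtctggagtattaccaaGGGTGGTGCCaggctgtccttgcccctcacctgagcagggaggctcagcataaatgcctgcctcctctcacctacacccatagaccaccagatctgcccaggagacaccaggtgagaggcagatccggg
Saa4 (chr7:46732554-46732853, minus strand): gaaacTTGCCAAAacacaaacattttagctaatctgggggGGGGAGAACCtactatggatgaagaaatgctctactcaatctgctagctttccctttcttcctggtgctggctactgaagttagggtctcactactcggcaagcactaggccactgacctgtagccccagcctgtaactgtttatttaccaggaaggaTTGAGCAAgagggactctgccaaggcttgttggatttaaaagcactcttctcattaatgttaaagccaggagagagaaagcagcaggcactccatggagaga
The promoters of Saa1 and Saa2 shared 287 of 301 aligned bases, an identity of 95.3%, and both carried a C/EBP match and an NF-kB match in nearly the same place. Sequence reads from either can fit both, and how such reads were placed is not given in the sources used here.

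Neither Saa1 nor Saa2 was strongly accessible at its start. Saa1 (46740497 to 46743181) had no peak within 1000 bp of either end in any library, and the nearest shared region began 2780 bp from its start. Saa2 (46751833 to 46754313) had a weak peak over its start in replicates 1 and 3, of 0.614 and 0.596 PPM, and none in the library labelled EV replicate 2. The gene-end peak that library had for Saa2 was another one, of 0.319 PPM, 910 bp beyond the upper end. No single region at a Saa2 end was therefore shared by the 3 libraries. At the start of Saa2 the height was under the list medians of 1.38 and 1.34 PPM of replicates 1 and 3. The near identity of the 2 promoters stands beside these low values, and its part in them was not tested.

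Around the pair, in contrast, stood taller regions. The interval from 46745760 to 46746848, between Saa1 and Saa2, reached 6.82 PPM in replicate 1, 2.45 in the library labelled EV replicate 2 and 6.45 in replicate 3. It was thus tall in replicates 1 and 3 and lower in the remaining library. The region from 46737705 to 46739376, 1121 bp from the lower end of Saa1, reached 4.55, 3.56 and 4.49 PPM in replicates 1, 2 and 3 (mean 4.20 ± 0.551, SD, n = 3).

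Saa3 (46711998 to 46719615) had 3 shared regions in or beside its body, and none at its listed start at 46715676. The tallest, from 46719007 to 46720326, reached 6.50, 6.45 and 7.23 PPM in replicates 1, 2 and 3 (mean 6.72 ± 0.437, SD, n = 3), the highest mean of the locus, although in replicate 1 the region between Saa1 and Saa2 was taller. It lies at the upper end of the annotated body, which is the upstream end of this minus-strand gene. It also lies over the noncoding gene Gm31882, whose listed start it covers. The second, from 46710162 to 46711081, reached 5.91, 5.50 and 6.24 PPM and overlaps the upper end of the neighbouring gene Saal1. It stood 917 bp outside the Saa3 body, and since Saa3 is read from the minus strand, that side is where its transcript ends. The third, inside the gene from 46714565 to 46714840, reached 1.62, 1.45 and 1.56 PPM and was the shared region nearest to the listed start, at 836 bp. The 3 libraries lay close together at each of these. A gene-end peak of Saa3 is thus no measure of accessibility at its listed start.

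Saa4 (46727992 to 46732603) had a peak over its start in every library. It reached 3.71 PPM in replicate 1, 2.52 in the library labelled EV replicate 2 and 3.93 in replicate 3 (mean 3.39 ± 0.757, SD, n = 3). Its highest summit lay at -36, -43 and -35 bp from the start in replicates 1, 2 and 3, negative meaning upstream, on the promoter printed above. The constitutive gene was thus the only one of the 4 with a shared peak at its listed start. This depends on the start listed, since the tallest Saa3 region lay at the upstream end of that gene's annotated body. Farther out, the region over the starts of Hps5 and Gtf2h1 had a mean of 5.92 ± 0.720 PPM (SD, n = 3). Tph1, which makes a serotonin-synthesis enzyme, and Saal1 were the other protein-coding neighbours.

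The Orm locus, on chromosome 4 from 63294556 to 63415877, holds Orm1 and Orm2, which encode orosomucoid or alpha-1-acid glycoprotein, a plasma carrier of basic drugs. Orm3, a related gene that is no member, lies between them. The promoters of Orm2 and Orm3 are shown because they are alike in sequence but were not alike in peaks. Capitals mark the C/EBP motif TTGCNNAA and the TATA motif TATAAA on either strand.
Orm2 (chr4:63362199-63362498, plus strand): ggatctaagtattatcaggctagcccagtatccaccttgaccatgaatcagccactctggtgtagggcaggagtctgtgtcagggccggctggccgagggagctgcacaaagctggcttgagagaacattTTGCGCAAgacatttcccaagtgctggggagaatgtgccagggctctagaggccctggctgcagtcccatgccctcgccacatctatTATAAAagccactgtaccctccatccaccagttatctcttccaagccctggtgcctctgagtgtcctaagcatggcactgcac
Orm3 (chr4:63355908-63356207, plus strand): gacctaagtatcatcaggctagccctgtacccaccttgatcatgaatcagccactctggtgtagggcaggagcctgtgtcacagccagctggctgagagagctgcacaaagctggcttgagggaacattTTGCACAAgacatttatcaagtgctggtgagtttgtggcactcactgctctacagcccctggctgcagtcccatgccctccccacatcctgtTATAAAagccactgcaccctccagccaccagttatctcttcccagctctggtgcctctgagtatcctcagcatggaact
They shared 264 of 305 aligned bases, an identity of 86.6%. Each carried a C/EBP match, from -120 to -113 in Orm2 and from -121 to -114 in Orm3, and a TATA match, from -33 to -28 and from -29 to -24, counted from the start.

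Orm2 (63362449 to 63365877) had a peak over its start that reached 5.38 PPM in replicate 1, 2.63 in the library labelled EV replicate 2 and 5.68 in replicate 3 (mean 4.57 ± 1.68, SD, n = 3). Its summits lay at -133, -112 and -128 bp from the start in replicates 1, 2 and 3, close to the C/EBP match. Weaker gene-end regions stood before and behind the gene, from 63361564 to 63361973 with 2.38, 0.921 and 2.47 PPM and from 63366253 to 63366517 with 1.40, 0.870 and 1.28 PPM. Orm3 had no peak within 250 bp of its listed start in any library. The nearest shared region began 638 bp inside it and reached 4.68, 2.60 and 5.44 PPM. How reads that fit both genes were placed is not known, so the contrast between their starts was not tested further.

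Orm1 (63344556 to 63348163) carried the tallest gene-end region of all members by the mean of 3 libraries, though in the library labelled EV replicate 2 those of Crp and Saa3 were taller, at 6.70 and 6.45 PPM. It ran from 63344250 to 63344881 over the lower end of the gene and reached 9.18 PPM in replicate 1, 5.66 in the library labelled EV replicate 2 and 9.34 in replicate 3 (mean 8.06 ± 2.08, SD, n = 3). That mean lay at the 96.3 percentile of all shared regions of the genome. The region also lay at the listed start of Gm52743, a gene that is not protein-coding. Its fold over the local background was 7.44, 8.92 and 7.28 in replicates 1, 2 and 3, in a stretch crowded with other peaks. Of its other gene-end peaks, the shared one from 63343696 to 63343988 reached 3.23, 1.48 and 3.93 PPM, one from 63345275 to 63345677 was called in replicates 1 and 3 at 2.36 and 2.72 PPM, and one from 63348605 to 63348841 in replicate 3 alone at 2.69 PPM. A region in the body, from 63346209 to 63347086, reached 5.08, 3.48 and 4.93 PPM. From 63338349 to 63372269, a stretch that spans the 3 Orm genes, all 12 shared regions had fewer PPM in the library labelled EV replicate 2 than in both others. Their fold over the local background was not lower throughout. In some it was highest in that library, as at the Orm1 lower end above and in the Orm1 body (3.97, 5.38 and 3.83 in replicates 1, 2 and 3). In others it was lowest there, as at the Orm2 start (9.85, 7.59 and 10.0). The protein-coding neighbours beside Orm3 were Akna, Col27a1 and Whrn, a collagen gene and a scaffold gene of the inner ear among them.

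Hp, on chromosome 8 from 109575128 to 109579172, encodes haptoglobin, which binds free haemoglobin in plasma. The region at its upper end, from 109578498 to 109579561, reached 6.43 PPM in replicate 1, 4.26 in the library labelled EV replicate 2 and 7.81 in replicate 3 (mean 6.17 ± 1.79, SD, n = 3). A small peak inside the gene, from 109577349 to 109577610, was present in replicates 1 and 3 at 2.33 and 2.35 PPM and was not called in the library labelled EV replicate 2. Between 5 and 8 kb beyond the upper end lay a pair of shared regions with means of 5.86 ± 0.634 and 4.98 ± 0.429 PPM (SD, n = 3), and the first of these covers the start of the noncoding gene Gm39247. The tallest region of the locus was that over the ends of Dhx38 and Txnl4b, splicing factor genes, at 8.46, 9.58 and 7.94 PPM in replicates 1, 2 and 3. At Hp itself the library labelled EV replicate 2 was the lowest of the 3, and at this neighbour it was the highest. Dhodh, Pkd1l3 and Pmfbp1 also overlapped the window.

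Crp and Apcs, on chromosome 1, encode the pentraxins C-reactive protein and serum amyloid P component. Of the pair, Apcs is the main acute phase reactant in mice, whereas mouse Crp responds only modestly. Lcn2, on chromosome 2, encodes lipocalin 2, which binds bacterial iron carriers and is also stored in neutrophil granules. Their promoters are printed because all 3 starts had a peak in every library, and capitals mark C/EBP, NF-kB, TATA and STAT (TTCNNNGAA) matches on either strand.
Crp (chr1:172697806-172698105, plus strand): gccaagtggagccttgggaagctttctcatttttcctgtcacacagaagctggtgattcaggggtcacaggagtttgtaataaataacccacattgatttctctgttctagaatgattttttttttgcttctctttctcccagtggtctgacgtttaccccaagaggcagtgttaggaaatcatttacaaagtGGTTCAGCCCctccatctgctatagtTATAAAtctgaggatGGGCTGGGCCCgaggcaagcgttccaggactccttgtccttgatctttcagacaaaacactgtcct
Apcs (chr1:172895005-172895304, minus strand): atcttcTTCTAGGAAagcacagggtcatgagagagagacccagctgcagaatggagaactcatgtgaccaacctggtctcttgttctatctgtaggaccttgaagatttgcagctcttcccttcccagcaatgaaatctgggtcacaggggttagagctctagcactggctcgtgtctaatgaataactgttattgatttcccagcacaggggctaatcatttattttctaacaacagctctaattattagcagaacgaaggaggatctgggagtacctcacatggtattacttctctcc
Lcn2 (chr2:32387690-32387989, minus strand): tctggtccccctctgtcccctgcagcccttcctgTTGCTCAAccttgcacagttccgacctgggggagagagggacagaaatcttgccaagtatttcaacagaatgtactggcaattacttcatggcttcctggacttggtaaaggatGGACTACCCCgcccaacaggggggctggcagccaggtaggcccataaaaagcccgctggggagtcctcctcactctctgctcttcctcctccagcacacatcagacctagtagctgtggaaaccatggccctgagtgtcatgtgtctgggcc
Matches differed between these starts. Crp had a TATA match from -31 to -26 and 3 NF-kB matches, of which 2 overlap, Apcs had a STAT match from -244 to -236 alone, and Lcn2 had a C/EBP match from -216 to -209 and an NF-kB match from -102 to -93.

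Crp (172698056 to 172699966) had the tallest start peak of the 8 members with a listed start, in each library. It reached 7.56 PPM in replicate 1, 6.70 in the library labelled EV replicate 2 and 7.28 in replicate 3 (mean 7.18 ± 0.438, SD, n = 3). The 3 libraries lay within a narrow range of each other. The highest summit stood at -394, -396 and -384 bp from the start in replicates 1, 2 and 3, outside the promoter window printed above. A region from 172650519 to 172652866, 45190 bp below the gene, had 5 summits in each library and reached 5.92, 3.44 and 5.82 PPM.

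Apcs (172893961 to 172895054) had a peak that spanned nearly the whole gene and reached 5.25 PPM in replicate 1, 3.72 in the library labelled EV replicate 2 and 5.12 in replicate 3 (mean 4.69 ± 0.847, SD, n = 3). The summits lay at -43, -49 and -41 bp from the start in replicates 1, 2 and 3. The region from 172902846 to 172904226, 7792 bp from the gene on its upstream side, reached 4.25 PPM in replicate 1, 0.827 in the library labelled EV replicate 2 and 4.17 in replicate 3. Replicates 1 and 3 were close together there, and the library labelled EV replicate 2 was far below them. With 3 shared regions in 101 kb, the Apcs window was the sparsest of the 6.

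Lcn2 (32384637 to 32387739) had a start peak of 2.39 PPM in replicate 1, 2.97 in the library labelled EV replicate 2 and 2.78 in replicate 3 (mean 2.71 ± 0.293, SD, n = 3). By its mean it was the lowest of the 5 start peaks, in the densest of the 6 loci, but in the library labelled EV replicate 2 the starts of Saa4 and Orm2 were lower, at 2.52 and 2.63 PPM. The summits lay at -189, -196 and -182 bp from the start, between the C/EBP and NF-kB matches printed above. Its neighbours were taller: the starts of 1110008P14Rik and Ptges2 had means of 8.80 ± 0.677 and 7.54 ± 0.438 PPM (SD, n = 3), and a listed start of Slc25a25, a mitochondrial carrier gene, had 10.03 ± 0.437. Ciz1 and Dnm1 also overlapped the window. Inside Slc25a25 the height and the fold over background parted. The region from 32418412 to 32418979 reached 9.77, 7.65 and 9.48 PPM with folds of 2.40, 2.80 and 3.09, whereas the lower Lcn2 start had folds of 9.38, 11.9 and 11.2.

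Across all 8 listed starts, the C/EBP motif TTGCNNAA had a match in 6, those of Saa1, Saa2, Saa3, Saa4, Orm2 and Lcn2, against 10.8% of 32851 promoter windows in the RefSeq table. The NF-kB motif had a match in 5, against 50.8% of windows, the TATA motif TATAAA in 2, against 13.6%, and the STAT motif TTCNNNGAA in 1, against 8.30%. The HNF1 motif GTTAAT had none, against 7.1%. Both strands were searched, and because several members share ancestry their matches are not separate observations. Saa1 and Saa3 carried a C/EBP match without a peak at the start, and Crp and Apcs had a start peak without one. Members' windows had 1 to 5 CpG dinucleotides, against a median of 7 over all windows.

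The library labelled EV replicate 2 differed from the other 2 close to the members. For each shared region its height was divided by the mean of replicates 1 and 3, and the median of that log2 ratio over all shared regions, -0.12, was subtracted, so rescaling that library, or both others by 1 common factor, does not alter the values. Of the 32 shared regions within 10 kb of a member, 25 lay below zero, against 48.6% of the 64588 shared regions within 10 kb of any protein-coding gene. Of the 31 farther regions 10 did. The medians were -0.32 near the members and 0.13 farther away. By locus, 12 of 12 near regions were below zero around the Orm genes, 6 of 7 in the Saa locus, 2 of 2 around Apcs, 2 of 3 around Crp, 2 of 5 around Hp and 1 of 3 around Lcn2. Whether the loci differ from each other in this was not tested.

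At least 2-fold lower in that library were 4 of the 32 near regions, 2 of them in the Orm locus, 1 between Saa1 and Saa2 and 1 upstream of Apcs, against 9.44% of all shared regions. No near region was 2-fold higher, against 7.97%. The lowest value, -2.23, was that of the region upstream of Apcs, and the region between Saa1 and Saa2 followed at -1.32. The highest, 2.18, belonged to the upper end of Akna, a gene beside the Orm cluster that encodes an AT-hook protein, with 5.50 PPM in that library, against 1.41 and 1.23 in replicates 1 and 3. Set against the mean of both others in the same way, replicate 1 had 10 and replicate 3 had 4 of the 32 near regions below zero, but these ratios contain the same second library. Peaks called in replicates 1 and 3 only made up 9 of the 100 merged regions, against 8.77% of regions genome-wide, and peaks of that library alone made up 10, against 16.9%. Within 10 kb of a member lay 8 of these 9 and 4 of these 10, as did 48 of the 100 merged regions. The 4 stood around Saa1 and Saa2. These are values of 1 library, with no replicate of it.

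Markers moved with it in part. The summed gene-end height of the 10 hepatocyte markers was 67.7, 58.6 and 72.6 PPM in replicates 1, 2 and 3, and of the 116 shared regions within 10 kb of those genes 69.8% lay below zero (median -0.35). Unlike the ratios, the sums are not corrected for the genome-wide median. The markers did not move alike: in replicates 1, 2 and 3 Abcb11 reached 8.56, 3.12 and 8.07 PPM, Hnf4a 3.14, 5.26 and 3.66, and F9 4.02, 3.98 and 3.93. For the negative acute phase proteins the share below zero was 69.8% and for the other positive ones 47.0%. It was 59.0% for receptor and signalling genes and 55.4% for the transcription factors that regulate acute phase genes. The summed gene-end heights of these last 2 lists were nevertheless highest in the library labelled EV replicate 2. Markers of other cell types differed from each other: 6 of 20 shared regions near macrophage markers lay below zero (median 0.48), 6 of 14 near neutrophil markers (median 0.10) and 20 of 37 near endothelial markers (median -0.16). The endothelial median was thus below zero, like that of the hepatocyte markers. The endothelial sum given next was also lowest in the library labelled EV replicate 2. In replicates 1, 2 and 3 the summed gene-end heights were 9.94, 9.95 and 9.52 PPM for the macrophage markers, 2.70, 2.65 and 1.88 PPM for the neutrophil markers and 4.99, 2.98 and 4.85 PPM for the endothelial markers. The part of these, and of the tall Sox4 signal, in the differences near the members was not tested.

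**Figure D3:**
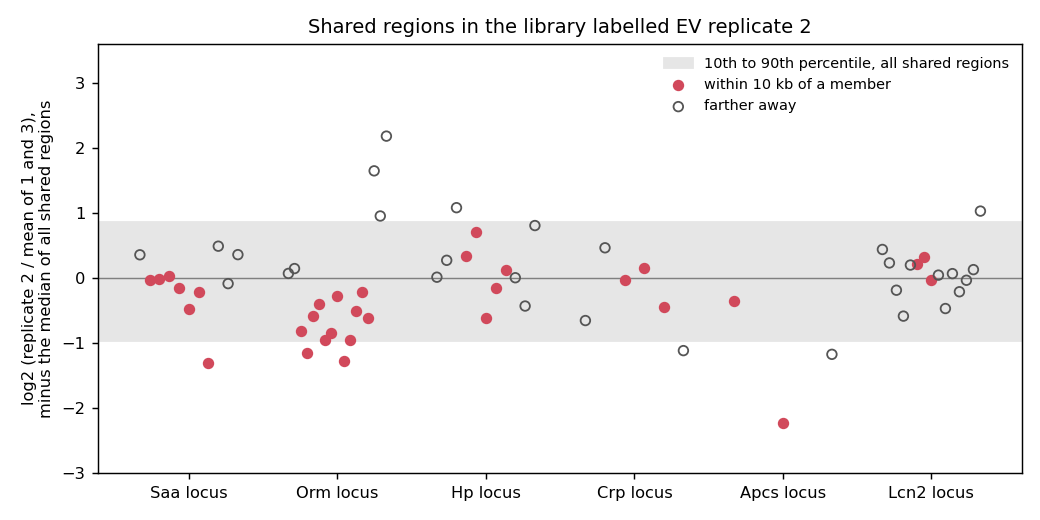
Each symbol is a shared region of 1 locus, ordered by position, and the vertical axis is the log2 ratio of the library labelled EV replicate 2 to the mean of replicates 1 and 3, less the median of all shared regions. Filled symbols lie within 10 kb of a member, and the grey band holds the 10th to 90th percentile of all shared regions. All 12 filled symbols of the Orm locus lie below zero, and the lowest symbol, at -2.23, is that of the Apcs locus.

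Genes of the wider acute phase response were counted from 4 lists, of receptors and signalling proteins, transcription factors, other positive acute phase proteins and negative ones. Of their 48 distinct genes, 46 were open at a gene end in every library, against 64.4% of protein-coding genes, and 47 without the library labelled EV replicate 2. Among those open in all libraries the median height at gene ends was 7.47 PPM for 18 of 19 receptor and signalling genes, 7.55 for 9 of 10 transcription factors, 6.45 for 15 of 15 other positive acute phase proteins and 7.86 for 6 of 6 negative ones, whose plasma levels fall in inflammation. Over all protein-coding genes with such a peak it was 5.97 PPM. The members' own values, from 0.510 PPM for Saa2 to 8.06 for Orm1, had their middle value, 4.69, at Apcs. That of Saa2 averages peaks at different ends of the gene.

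Il6ra, the gene of the interleukin 6 receptor, had the tallest gene-end peak of the receptor and signalling list by its mean, at 9.48, 10.3 and 9.49 PPM in replicates 1, 2 and 3 (mean 9.74 ± 0.442, SD, n = 3). Socs3, a feedback inhibitor of STAT3 signalling, and Jak1 came next. Socs3 reached 7.89, 10.6 and 8.55 PPM in replicates 1, 2 and 3, and Jak1 had a mean of 8.62 ± 0.0619 PPM (SD, n = 3). Il1r1, the interleukin 1 receptor gene, and Osmr, the oncostatin M receptor gene, were the lowest with 1.95 ± 0.249 and 1.91 ± 0.674 PPM, and Lifr, the gene of a related receptor, lacked one in every library. By their means, Il6ra and Osmr, receptor genes of the same cytokine family, thus had the tallest and the lowest gene-end peak of this list. A gene-end peak need not lie at a start, and the starts of these genes were not read separately.

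Among the transcription factors, Cebpa and Cebpd led with means of 8.30 ± 0.218 and 8.27 ± 0.394 PPM, followed by Rela, the NF-kB subunit gene, with 7.76 ± 0.955 (SD, n = 3). Onecut1 and Hnf4a were lowest with 5.31 ± 0.921 and 4.02 ± 1.10. Nr3c1, the glucocorticoid receptor gene, had a weak gene-end peak in replicates 1 and 3 and none in the library labelled EV replicate 2. The other positive acute phase proteins were led by the fibrinogen genes Fgg and Fga, with 10.06 ± 1.53 and 8.42 ± 0.873, and Mt1, a metallothionein gene, with 8.19 ± 0.833. Cd14 and A2m were lowest with 1.90 ± 0.0974 and 1.08 ± 0.615, and A2m was tallest in the library labelled EV replicate 2. The negative ones were led by Ahsg, Trf and Alb, with 9.80 ± 0.186, 8.60 ± 1.18 and 8.30 ± 1.21, and ended with Rbp4 and Serpina6, with 6.39 ± 0.483 and 4.77 ± 1.42 PPM. Values of gene ends are pileups at 1 peak and do not compare RNA levels.

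**Figure D4:**
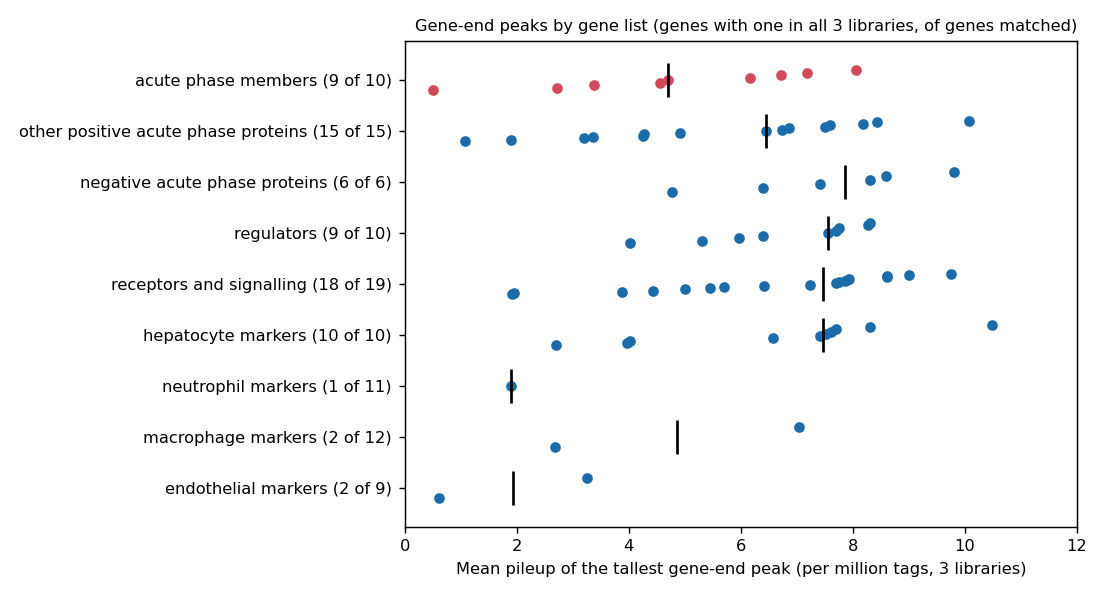
Mean height of the tallest gene-end peak, in pileup per 1000000 tags over 3 libraries (horizontal axis), for genes with such a peak in every library; vertical lines are medians, and the numbers beside each list give those genes and the genes matched. The 9 members with values spread from 0.510 to 8.06 PPM, and neutrophil, macrophage and endothelial markers have 1, 2 and 2 genes to show. The lowest member, Saa2, has its peaks at different gene ends between libraries.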

How the data were processed

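Peaks were called in each ATAC-seq library separately with MACS 2.2.7.1, without a control library, with a shift of 100 bp and an extension of 200 bp for each read, all duplicates in the input kept, and a q cutoff of 0.05, per the file headers. Per the submitters' processing notes, the tools were Bowtie2, Picard, deepTools and MACS2, on mm10. The pileup signal is raw tag coverage as deposited, not scaled for depth. The fold ratio and the −log10 p and q values were deposited by the authors and set a summit against its own library's background, taken over up to 10000 bp; they were used only to describe or filter peaks.

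Summits that shared an interval were counted as 1 peak, with the highest pileup divided by the tags in the header. Peaks sharing 1 bp or more were merged with Python 3.11.15 and pandas 2.3.3; promoters were aligned with Biopython 1.88. The merging was tested on simulated data. Precision rests on 3 libraries, and regions without a peak have no value. A pair of libraries had at most 324 peaks with the same start and end, so no list was a copy of another. Each was counted as its own sample, but this check cannot show whether they came from separate mice.

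The members and lists were chosen with earlier results of these data known, so no test was made on them. Named were all members, their gene-end regions, the tallest region and protein-coding neighbours of each locus, and, of each pathway list, the 3 tallest and 2 lowest genes and those without a gene-end peak in every library. Fcn3 was not matched. Alternatives were stricter peak thresholds, other windows, overlaps and scalings, and leaving out each library.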

Additional observations from a re-analysis of the deposited data

How the results depend on the processing

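The number of shared regions in the acute phase loci, 63, was 64 to 73 when a library was left out, 61 at a −log10 q of 10 or more and 63 with an overlap of 50% of the shorter peak. With the 50000 strongest peaks of each library it was 40, and with windows of 10 kb it was 32, since fewer peaks and less sequence then enter. Their median height of 3.09 PPM, 1.81 times the genome's, was 2.96 to 3.03 without a library, 4.63 with the 50000 strongest peaks, where it was only 1.24 times the genome's 3.74, and 4.22 with windows of 10 kb, and in units of the list median it was 2.48, or 1.83 times the genome's. Of the members, 8 to 10 were open at a gene end in every library over the alternatives tried. Saa2 dropped out with that q filter, with 50000 peaks and with 500 bp, and Saa1 gained one with 2500 bp. Start peaks were found at 5 members, or 6 without replicate 2, where Saa2 was added. Pathway genes with a gene-end peak numbered 43 to 47 over the alternatives. No paired analysis was possible because the labels give 1 group. A peak list has no value below its threshold, which limits weak regions such as the Saa2 start.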
